A study of Homo sapiens with 18 samples.

Results

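The genes described here are 30 listed genes of protein folding and degradation in the endoplasmic reticulum (ER), taken by name from a list that was drawn up with earlier results of these data known. All 30 were measured, out of 18418 genes with a named transcript cluster on the array, and each was read from 1 transcript cluster, the brightest where a gene had several. The data are 18 arrays that measure RNA per gene, 6 from VCaP and 12 from LNCaP, which are established androgen-responsive lines of human prostate cancer.

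Cells received R1881, a synthetic androgen, or its vehicle, ethanol, 48 h after transfection with an siRNA. The VCaP arrays covered siPSF, an siRNA against the RNA-binding protein PSF, siCTBP1-AS, an siRNA against the antisense transcript of CTBP1, a corepressor gene, and the control siRNA siControl. R1881 was at 1 nM in VCaP. The LNCaP arrays fell into 3 sets by their array names. Set 1 held siCTBP1-AS and siControl at 10 nM R1881, set 2 held siCTBP1-AS and siControl at 1 nM, and set 3 held siPSF and siControl at 10 nM. In set 2 and in VCaP the labels mark siCTBP1-AS with #2, without saying what the mark means. Each combination of siRNA and treatment had 1 array in its set, and all cells had been kept beforehand in medium with serum treated with charcoal. How long R1881 was applied is not stated in the labels.

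Secreted and membrane proteins fold in the ER with the help of chaperones, lectins and enzymes that form disulphide bonds, and proteins that fail to fold are returned to the cytosol and degraded. When unfolded proteins accumulate, the sensors ERN1, EIF2AK3 and ATF6 start the unfolded protein response, in which ERN1 splices the mRNA of the transcription factor XBP1. XBP1 and ATF6 are known to raise the transcription of chaperone and degradation genes, and luminal prostate cells are secretory cells that depend on this machinery.

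The promoters of many such genes hold short elements that ATF6 and XBP1 are known to act through. A RefSeq promoter, 250 bases before to 50 after the start on GRCh38.p14, was at hand for 27 of the 30 genes, all but PDIA3, DERL1 and SEC24D. The ER stress response element, searched on both strands as CCAAT and CCACG with any 9 bases between them, lay in 8 of these 27 promoters (29.6%), against 25 of 27305 genes (0.0916%). The shorter ER stress response element II, ATTGG and CCACG with any 1 base between them, lay in 3 (11.1%) against 19 genes (0.0696%), and the core of the unfolded protein response element, TGACGTGG, in 2 (7.4%) against 253 (0.927%). Together 12 of the 27 (44.4%) held at least 1 of the elements, against 295 of all genes (1.08%), and in HYOU1 the core overlaps an element II. The stretches that follow show the elements in 8 of these genes, with the motif in capitals and its flanks in lower case, read along the gene's strand. An element on the opposite strand reads as its reverse complement.
HSPA5: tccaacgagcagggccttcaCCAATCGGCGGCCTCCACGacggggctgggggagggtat
HSP90B1: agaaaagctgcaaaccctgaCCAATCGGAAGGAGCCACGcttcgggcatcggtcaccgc
XBP1: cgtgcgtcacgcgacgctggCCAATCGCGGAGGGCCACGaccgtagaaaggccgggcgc
CRELD2: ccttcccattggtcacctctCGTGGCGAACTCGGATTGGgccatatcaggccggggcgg
ERO1B: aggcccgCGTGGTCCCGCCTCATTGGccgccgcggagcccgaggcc
HERPUD1: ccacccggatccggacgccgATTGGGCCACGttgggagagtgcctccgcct
SDF2L1: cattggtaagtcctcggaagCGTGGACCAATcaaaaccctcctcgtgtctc
DNAJC10: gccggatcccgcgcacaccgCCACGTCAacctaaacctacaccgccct
HSPA5, HSP90B1 and XBP1 show the full element on the gene's own strand, with CCAAT and CCACG at its ends, whereas CRELD2 and ERO1B hold it reversed. HERPUD1 has element II, SDF2L1 has it reversed, and DNAJC10 has the reversed core. On GRCh38.p14 the printed stretches lie at chr9:125241371-125241429 on the minus strand for HSPA5, chr12:103930196-103930254 on the plus strand for HSP90B1 and chr22:28800583-28800641 on the minus strand for XBP1. CRELD2 is at chr22:49918534-49918592 on the plus strand, ERO1B at chr1:236282163-236282208 on the minus strand and HERPUD1 at chr16:56932005-56932055 on the plus strand. SDF2L1 is at chr22:21642094-21642144 and DNAJC10 at chr2:182716112-182716159, both on the plus strand. A match to letters is a description of sequence only.

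Signals are on the log2 scale, and a difference of 1 is a doubling. The medians of all clusters differed between sets, at 6.25 in VCaP and 6.7, 5.73 and 6.79 in LNCaP sets 1, 2 and 3, so levels are comparable within a set only. The 5 luminal markers measured averaged 10.67 to 12.59 per array, against 4.88 to 6.64 for basal, 4.49 to 5.73 for fibroblast, 4.35 to 6.39 for leukocyte and 3.63 to 5.49 for endothelial markers. Single markers were well above these means. The fibroblast marker LUM was at 8.58 to 10.1 on the VCaP vehicle arrays. The leukocyte marker CD68 reached 10.65 in LNCaP set 1, and the basal marker ITGA6 reached 10.21 in VCaP. SFPQ, which encodes PSF, was at 9.7 and 9.61 with siPSF against 11.02 and 11.16 with siControl in VCaP, and at 10.47 and 9.89 against 11.15 and 10.79 in LNCaP set 3. Knockdown of the antisense transcript itself was not checked, because no named cluster used here carries it. KLK3, an androgen target that encodes PSA, was higher with R1881 in all 9 pairs of arrays, by 0.88 to 2.6. The array of siControl with vehicle in LNCaP set 1 stood apart for the ER genes: 29 of the 30 had their highest signal of the set there, and their mean was 0.84 above that of the set's other arrays. Genes of the PERK, ATF4 and CHOP branch averaged 0.89 above the other arrays there, and cytosolic heat shock genes averaged -0.17 relative to them. KLK3 differed by 1.22 between R1881 and vehicle in that pair. Calls from differences that use this array are also given without its set, a choice made after the values were seen. The other fits share a spread that includes it, and for R1881 in VCaP the calls on the VCaP arrays alone are given too. The RNA came from whole cultures, in which fewer cells and less RNA per cell cannot be told apart.

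With R1881 in VCaP, 18 of the 30 ER genes rose and 0 fell (limma, adjusted p under 0.05), and the fitted difference was above 0 for all 30. Of all 13813 genes tested, 29.7% were called in that comparison, 14% as higher. The median difference of the ER genes was 0.61, against 0.01 for all genes. DNAJB9, a cochaperone of HSPA5, rose most, by 1.52, followed by DNAJC3 at 1.34 and the export adaptor SEC24D at 1.32. The 3 VCaP pairs differ in siRNA, and their medians were 0.67 with siPSF, 0.54 with siCTBP1-AS and 0.61 with siControl. The count was 3 without the siPSF pair, 6 without the siCTBP1-AS pair and 3 without the siControl pair, with medians of 0.58 to 0.64. On the 6 VCaP arrays alone 24 of the 30 rose, where 29.5% of all genes were called and 13.7% as higher. That fit, with 2 residual degrees of freedom, also called HSPA5, XBP1, HERPUD1, CRELD2, WFS1, PDIA6 and DERL2, and did not call DERL1. Below, VCaP results per gene are from the fit on all 18 arrays, whose spread includes LNCaP set 1.

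In LNCaP the count of ER genes called depended on set 1. Over all 6 pairs, 4 of the 30 genes rose and 0 fell, namely DNAJB9, SEC24D, DNAJC10 and SEC61B, and all 4 also rose in VCaP. The background was 18.3% of all genes called, 9.35% as higher. The median difference was 0.24, against -0.01 for all genes. With set 1 left out, 23 of the 30 rose and 0 fell, where 17% of all genes were called and 8.82% as higher, and the median was 0.48. Without only the siControl pair of set 1, 22 rose, where 18.2% of all genes were called and 9.9% as higher. By pair, the medians were 0.19 with siCTBP1-AS and -0.59 with siControl in set 1, 0.26 and 0.56 in set 2, and 0.48 with siPSF and 0.62 with siControl in set 3. All 30 differences were below 0 in the siControl pair of set 1, and all 30 were above 0 in both pairs of set 3.

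**Figure D1:**
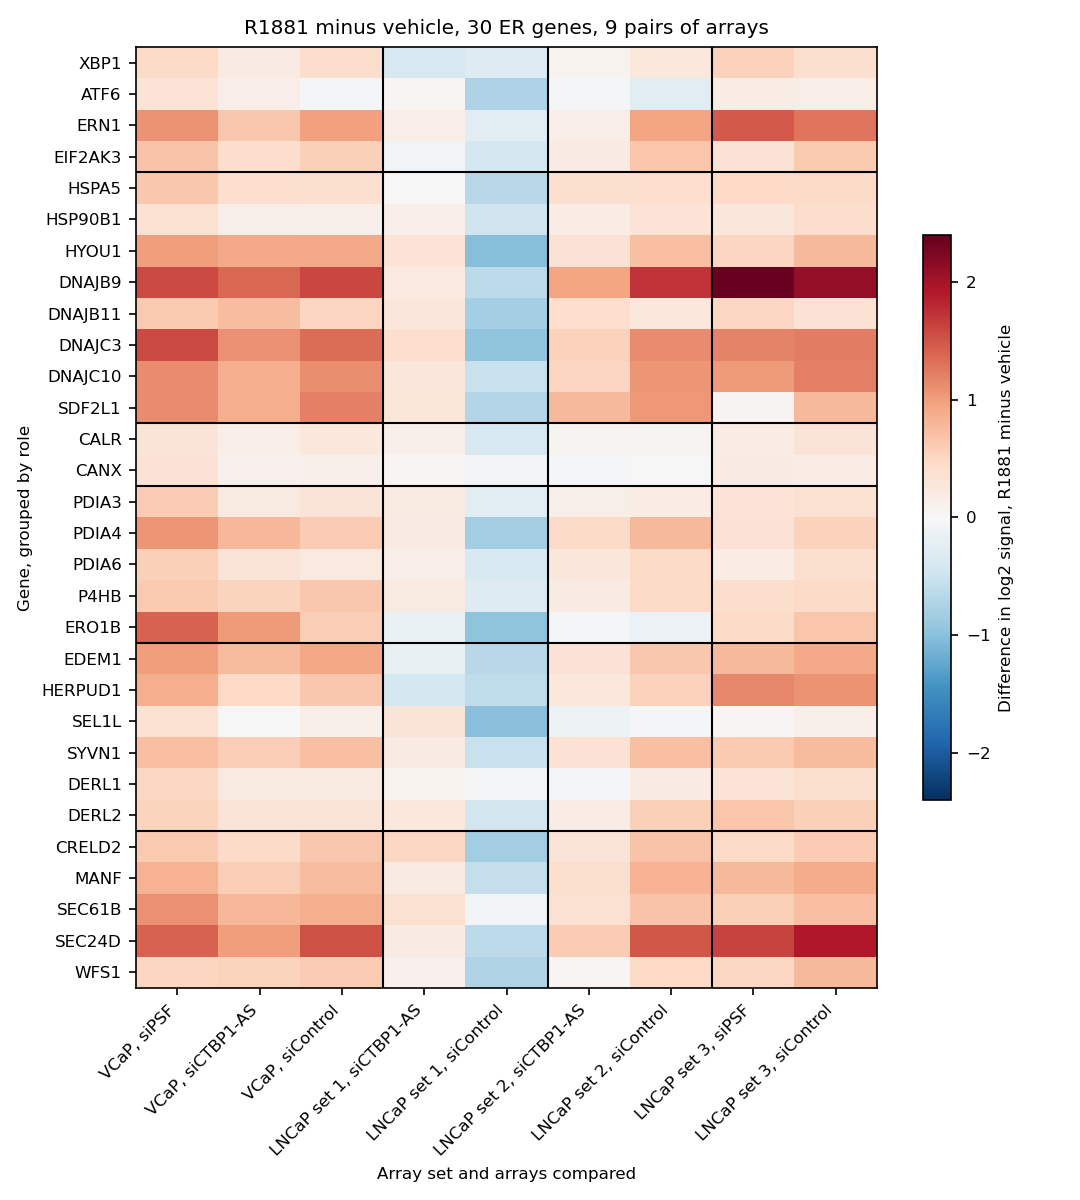
Difference in log2 signal, R1881 minus vehicle, for 30 ER genes (rows, grouped by role, lines between roles) in 9 pairs of arrays (columns, by set and siRNA). DNAJB9 reaches 2.37 in LNCaP set 3 with siPSF (red, higher with R1881), and the siControl column of LNCaP set 1 is below 0 for all 30 genes, from -1.03 for HYOU1 (blue) to -0.02 for DERL1 (almost white).

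Outside set 1, R1881 minus vehicle was above 0 in all 7 pairs for 25 of the 30 genes (83.3%), against 9.54% of all genes. The other 5 were ATF6, CANX, SEL1L, ERO1B and DERL1. Set 1 was left out after the values of these same genes were seen. All 30 were below 0 in its siControl pair, so none was above 0 in every pair of the series. The counts and correlations without set 1 are therefore a description only. Of the 18 genes called in VCaP and the 23 called in LNCaP without set 1, 15 were shared, which is 15 of 18 and 15 of 23. ATF6, CALR, CANX and SEL1L were called in neither. Of all genes, 14% were called as higher in VCaP and 8.82% in LNCaP without set 1, and the share called in both was not counted. The VCaP fit still has set 1 in its spread, and the VCaP arrays alone called all of the 23 but HSP90B1. Across the 30 genes, the difference in VCaP and that in LNCaP without set 1 had a Pearson r of 0.87 and a Spearman rho of 0.85, over genes measured with the same probes on separate arrays.

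**Figure D2:**
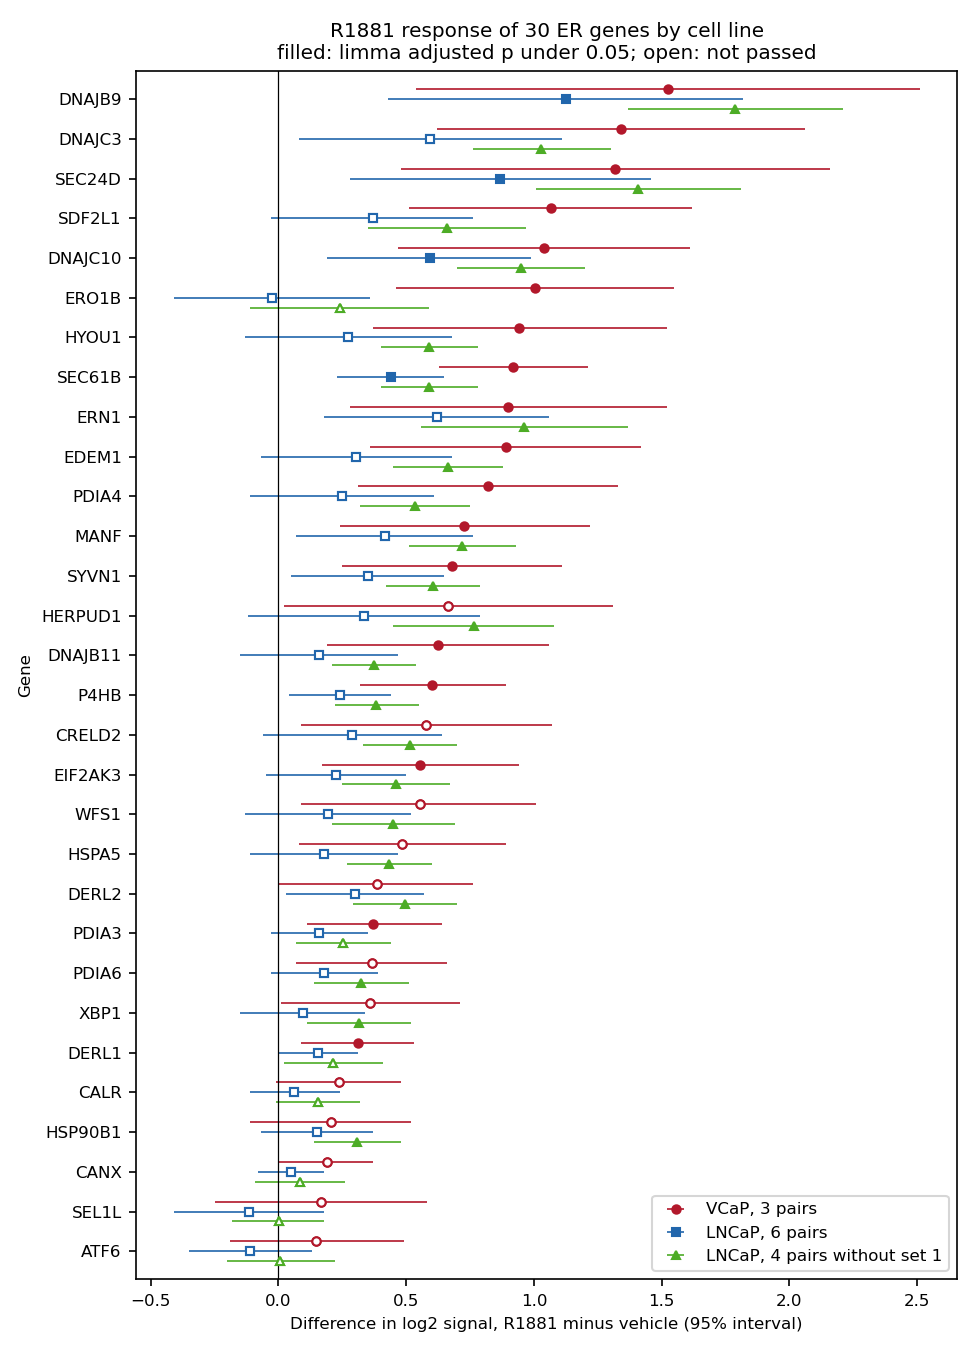
Fitted difference in log2 signal, R1881 minus vehicle, with its 95% interval, for 30 ER genes ordered by their value in VCaP. Red circles are VCaP (3 pairs), blue squares LNCaP (6 pairs) and green triangles LNCaP without set 1 (4 pairs), and filled symbols passed at an adjusted p under 0.05. SEC61B, at 0.92 in VCaP and 0.44 in LNCaP, has the narrowest intervals among the 4 genes called in both.

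Among the sensors and transcription factors, ERN1 and EIF2AK3 rose in VCaP, whereas XBP1 and ATF6 did not pass there. In what follows, 3 values for VCaP run siPSF, siCTBP1-AS and siControl, and 3 values for LNCaP run sets 1, 2 and 3, whose knockdowns are siCTBP1-AS, siCTBP1-AS and siPSF. ERN1 had 8.94, 9.06 and 9.13 with R1881 in VCaP, against 7.88, 8.40 and 8.15 with vehicle. ERN1, the kinase and nuclease also called IRE1, was higher with R1881 in every VCaP pair, and the 2 treatments did not overlap. The difference was 0.90 ± 0.28 (SE, 3 pairs, limma adjusted p = 0.0323). ERN1 had 9.50, 8.98 and 9.97 with R1881 against 9.78, 8.04 and 8.68 with vehicle in the siControl arrays of LNCaP. ERN1 with knockdown had 9.30, 8.28 and 10.23 with R1881 and 9.15, 8.12 and 8.76 with vehicle there. Its R1881 arrays were higher in all LNCaP pairs but the siControl pair of set 1. The 6 pairs gave 0.62 ± 0.20 (adjusted p = 0.0513), and the 4 pairs without set 1 gave 0.96 ± 0.18 (adjusted p = 0.00577).

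EIF2AK3 is the kinase PERK, which slows translation under stress. In VCaP the EIF2AK3 signal was 9.40, 8.75 and 9.03 with R1881 and 8.71, 8.34 and 8.46 with vehicle. The 3 pairs differed by 0.42 to 0.69 without overlap of the treatments, and EIF2AK3 rose by 0.56 ± 0.17 (adjusted p = 0.0326). In LNCaP, EIF2AK3 with siControl stood at 9.23, 8.92 and 9.59 with R1881 and 9.65, 8.25 and 8.96 with vehicle. For EIF2AK3 the knockdown arrays of LNCaP gave 8.69, 8.13 and 9.39 with R1881, against 8.75, 7.93 and 9.05 with vehicle. In both set 1 pairs the R1881 array was the lower one, and in sets 2 and 3 it was the higher one, and the fit gave 0.23 (adjusted p = 0.249) over 6 pairs and 0.46 (adjusted p = 0.00926) without set 1.

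XBP1, whose spliced mRNA encodes the active factor, was measured as a whole gene, so these signals do not separate its spliced form. XBP1 had 12.25, 11.86 and 12.13 with R1881 in VCaP, against 11.80, 11.66 and 11.70 with vehicle. Its difference in VCaP was 0.36, with a 95% interval of 0.01 to 0.71 and an adjusted p of 0.116. XBP1 had 11.33, 11.48 and 11.74 with R1881 against 11.64, 11.23 and 11.36 with vehicle in the siControl arrays of LNCaP. XBP1 with knockdown had 10.89, 11.75 and 11.97 with R1881 and 11.27, 11.67 and 11.42 with vehicle there. Without set 1 XBP1 rose by 0.32 in LNCaP (adjusted p = 0.0393), against 0.10 over 6 pairs (adjusted p = 0.627). ATF6, a membrane-bound factor that is released by cleavage, did not pass in either line. In VCaP the ATF6 signal was 10.22, 10.14 and 10.00 with R1881 and 9.89, 9.99 and 10.03 with vehicle. In LNCaP, ATF6 with siControl stood at 11.01, 10.33 and 11.19 with R1881 and 11.75, 10.58 and 11.04 with vehicle. For ATF6 the knockdown arrays of LNCaP gave 11.13, 10.29 and 10.97 with R1881, against 11.07, 10.34 and 10.79 with vehicle. Its VCaP treatments overlapped. The intervals for ATF6 were -0.19 to 0.49 in VCaP and -0.2 to 0.22 in LNCaP without set 1.

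In the HSP70 and HSP90 chaperone system, 6 of 8 genes rose in VCaP, and all 8 rose in LNCaP without set 1. The largest estimates were those of the cochaperones DNAJB9 and DNAJC3. DNAJB9 had 9.02, 8.50 and 8.96 with R1881 in VCaP, against 7.44, 7.12 and 7.36 with vehicle. DNAJB9 binds HSPA5 and unfolded proteins in the ER lumen, and its lowest R1881 array was above its highest vehicle array in VCaP. The difference was 1.52 ± 0.45 (adjusted p = 0.0244). DNAJB9 had 9.56, 9.19 and 10.24 with R1881 against 10.19, 7.45 and 8.12 with vehicle in the siControl arrays of LNCaP. DNAJB9 with knockdown had 8.96, 8.76 and 10.15 with R1881 and 8.73, 7.82 and 7.78 with vehicle there. DNAJB9 was highest with vehicle in the siControl pair of set 1 and with R1881 in the other 5 pairs. It rose by 1.13 ± 0.32 over the 6 LNCaP pairs (adjusted p = 0.0296) and by 1.79 ± 0.19 without set 1 (adjusted p = 0.000332).

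DNAJC3, a cochaperone known as an inhibitor of EIF2AK3, and DNAJC10, a cochaperone that reduces disulphide bonds, also rose in VCaP. In VCaP the DNAJC3 signal was 9.19, 8.70 and 9.27 with R1881 and 7.61, 7.61 and 7.93 with vehicle. The treatments did not overlap, and the difference was 1.34 (adjusted p = 0.0102). In LNCaP, DNAJC3 with siControl stood at 9.19, 9.21 and 10.38 with R1881 and 10.15, 8.07 and 9.14 with vehicle. For DNAJC3 the knockdown arrays of LNCaP gave 8.69, 9.03 and 9.82 with R1881, against 8.27, 8.47 and 8.63 with vehicle. Over 6 LNCaP pairs it was 0.59 (adjusted p = 0.103), and without set 1 it was 1.03 (adjusted p = 0.000564). DNAJC10 had 10.40, 9.98 and 10.34 with R1881 in VCaP, against 9.27, 9.10 and 9.23 with vehicle. DNAJC10 rose by 1.04 in VCaP (adjusted p = 0.011), again without overlap. DNAJC10 had 10.19, 10.10 and 10.59 with R1881 against 10.72, 9.05 and 9.39 with vehicle in the siControl arrays of LNCaP. DNAJC10 with knockdown had 9.57, 9.72 and 10.37 with R1881 and 9.29, 9.21 and 9.34 with vehicle there. DNAJC10 is 1 of the 4 genes called over 6 LNCaP pairs, at 0.59 (adjusted p = 0.044), and it reached 0.95 without set 1.

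DNAJB11, which delivers unfolded proteins to HSPA5, and SDF2L1, a luminal protein that pairs with DNAJB11, both rose in VCaP. In VCaP the DNAJB11 signal was 9.68, 9.23 and 9.24 with R1881 and 9.06, 8.49 and 8.72 with vehicle. The lowest of its R1881 arrays was above the highest of its vehicle arrays, and DNAJB11 rose by 0.63 (adjusted p = 0.0341). In LNCaP, DNAJB11 with siControl stood at 9.83, 9.22 and 10.36 with R1881 and 10.65, 8.96 and 10.01 with vehicle. For DNAJB11 the knockdown arrays of LNCaP gave 9.82, 9.73 and 10.34 with R1881, against 9.54, 9.32 and 9.85 with vehicle. DNAJB11 gave 0.16 (adjusted p = 0.494) over 6 LNCaP pairs and 0.38 (adjusted p = 0.0074) without set 1. SDF2L1 had 8.09, 7.87 and 8.31 with R1881 in VCaP, against 6.96, 7.00 and 7.11 with vehicle. The VCaP pairs of SDF2L1 differed by 0.87 to 1.20, its treatments did not overlap, and it rose by 1.07 (adjusted p = 0.00862). SDF2L1 had 8.58, 7.83 and 8.64 with R1881 against 9.29, 6.79 and 7.87 with vehicle in the siControl arrays of LNCaP. SDF2L1 with knockdown had 8.20, 7.26 and 7.98 with R1881 and 7.91, 6.49 and 7.92 with vehicle there. The siPSF pair of set 3 differed by 0.06, whereas both set 2 pairs differed by 0.77 or more. The fit gave 0.37 (adjusted p = 0.19) over 6 pairs and 0.66 (adjusted p = 0.0101) without set 1.

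HYOU1, a large relative of HSP70 that releases nucleotide from HSPA5, rose in VCaP. In VCaP the HYOU1 signal was 10.41, 10.01 and 10.24 with R1881 and 9.40, 9.11 and 9.33 with vehicle. Its treatments did not overlap, and it rose by 0.94 (adjusted p = 0.019). In LNCaP, HYOU1 with siControl stood at 10.45, 9.84 and 10.89 with R1881 and 11.49, 9.11 and 10.12 with vehicle. For HYOU1 the knockdown arrays of LNCaP gave 10.23, 9.29 and 10.69 with R1881, against 9.91, 8.96 and 10.17 with vehicle. Its siControl pair of set 1 was the furthest below 0 among the 30 genes, at -1.03. HYOU1 gave 0.27 (adjusted p = 0.356) over 6 LNCaP pairs and 0.59 (adjusted p = 0.00168) without set 1.

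HSPA5, the ER HSP70 also called BiP, and HSP90B1, the ER HSP90, did not pass in VCaP or over 6 LNCaP pairs. HSPA5 had 12.88, 12.47 and 12.52 with R1881 in VCaP, against 12.23, 12.06 and 12.14 with vehicle. Every R1881 array of VCaP was above every vehicle array, with a difference of 0.48 (95% interval 0.08 to 0.89, adjusted p = 0.0716). HSPA5 had 13.12, 12.58 and 12.93 with R1881 against 13.78, 12.16 and 12.47 with vehicle in the siControl arrays of LNCaP. HSPA5 with knockdown had 12.54, 12.58 and 12.73 with R1881 and 12.56, 12.19 and 12.25 with vehicle there. The vehicle array of siControl in set 1 was the highest of its set. HSPA5 differed by 0.18 (adjusted p = 0.4) over 6 pairs and rose by 0.43 ± 0.07 (adjusted p = 0.00332) without set 1, with 0.39 to 0.47 in each of those 4 pairs. In VCaP the HSP90B1 signal was 13.11, 12.84 and 12.92 with R1881 and 12.76, 12.69 and 12.80 with vehicle. In LNCaP, HSP90B1 with siControl stood at 13.10, 12.79 and 13.03 with R1881 and 13.58, 12.46 and 12.60 with vehicle. For HSP90B1 the knockdown arrays of LNCaP gave 12.91, 12.77 and 12.78 with R1881, against 12.76, 12.58 and 12.50 with vehicle. HSP90B1 differed by 0.21 in VCaP (adjusted p = 0.318) and by 0.15 over 6 LNCaP pairs (adjusted p = 0.35), and rose by 0.31 without set 1 (adjusted p = 0.0212).

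**Figure D3:**
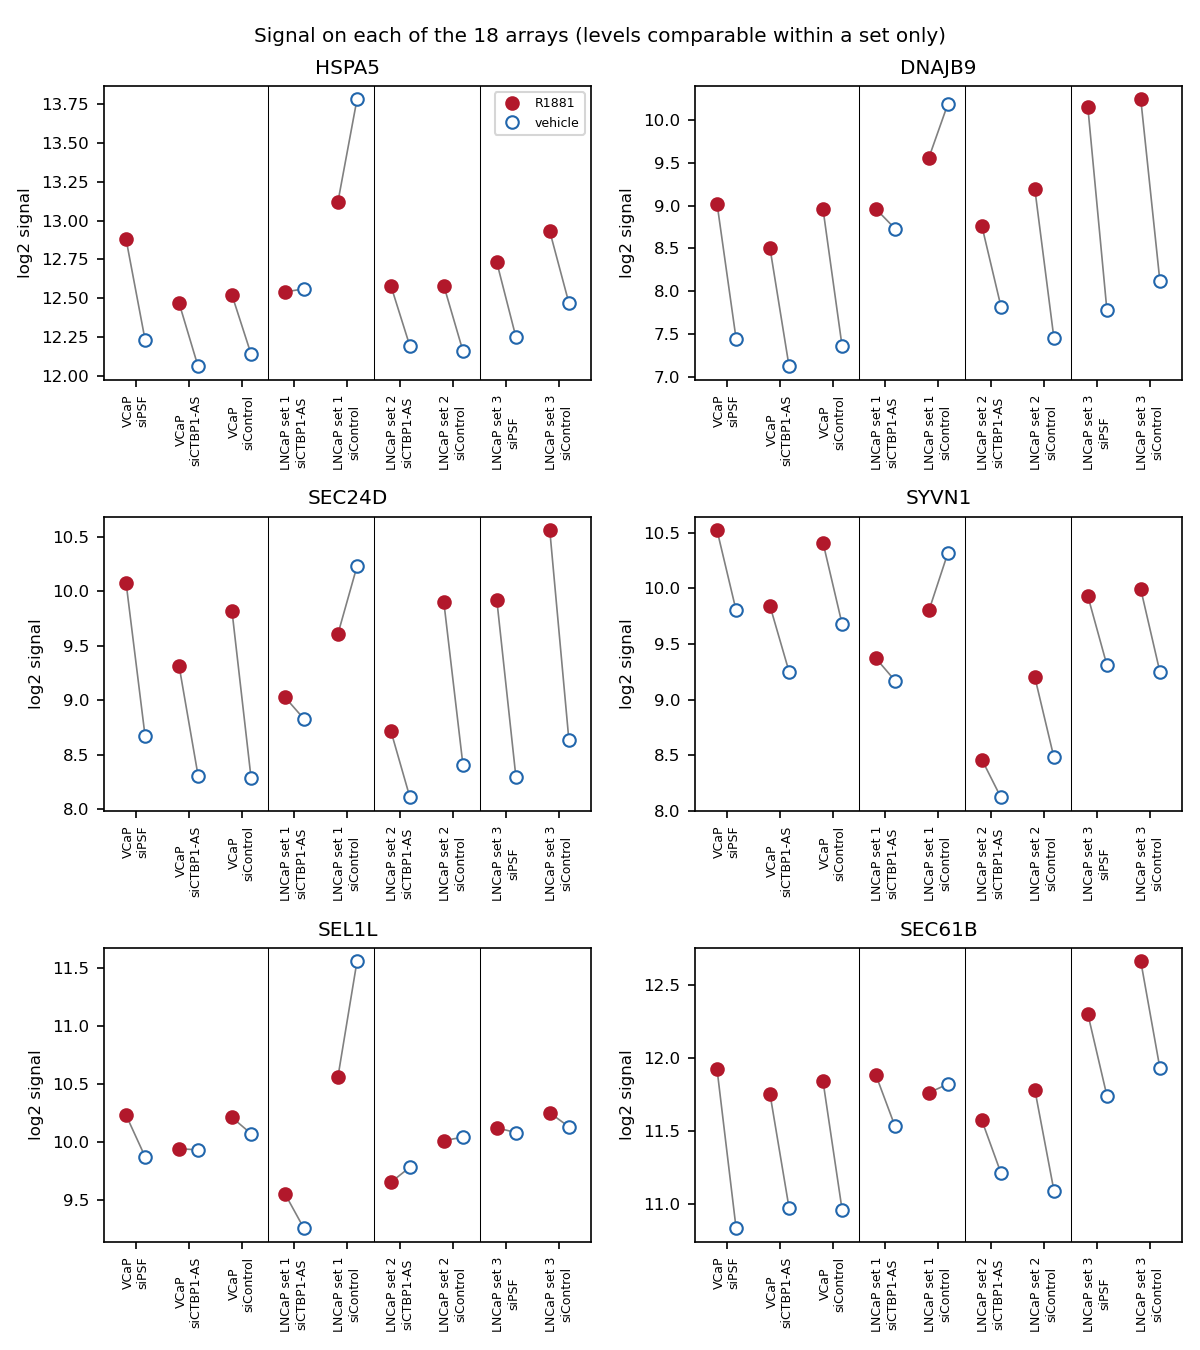
Log2 signal of HSPA5, DNAJB9, SEC24D, SYVN1, SEL1L and SEC61B on each of the 18 arrays, by set and siRNA. Filled red points are R1881 and open blue points vehicle, and a line joins the arrays of a pair. In LNCaP set 1 with siControl the vehicle point lies above the R1881 point in every panel, for HSPA5 at 13.78 beside 13.12 with R1881.

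The lectin chaperones CALR and CANX, which hold glycoproteins by their sugars, did not pass in either line. CALR differed by 0.24 in VCaP and by 0.06 over 6 LNCaP pairs (adjusted p = 0.136 and 0.662). CANX differed by 0.19 and 0.05 (adjusted p = 0.118 and 0.622). Without set 1 the LNCaP values were 0.16 for CALR (adjusted p = 0.181) and 0.08 for CANX (adjusted p = 0.534). The signals of CALR ran from 12.00 to 12.54 and those of CANX from 12.56 to 13.43 over the 18 arrays. Their mean signals were above those of 99.3% (CALR) and 99.8% (CANX) of genes. Over the 30 genes, mean signal and the R1881 difference had a Pearson r of -0.59 in VCaP. It was -0.45 in LNCaP without set 1, and the part of signal level in the differences was not tested.

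Of the 5 genes of disulphide formation, 4 rose in VCaP. P4HB is the archetypal protein disulphide isomerase. P4HB had 13.16, 13.04 and 13.18 with R1881 in VCaP, against 12.54, 12.51 and 12.53 with vehicle. The lowest R1881 array, at 13.04, was above the highest vehicle array, at 12.54, and P4HB rose by 0.60 ± 0.13 (adjusted p = 0.00506). P4HB had 12.62, 12.61 and 13.06 with R1881 against 12.93, 12.16 and 12.60 with vehicle in the siControl arrays of LNCaP. P4HB with knockdown had 12.58, 12.23 and 12.92 with R1881 and 12.36, 12.03 and 12.50 with vehicle there. P4HB gave 0.24 (adjusted p = 0.0965) over 6 LNCaP pairs and 0.38 (adjusted p = 0.00671) without set 1. PDIA4 is another isomerase. In VCaP the PDIA4 signal was 11.84, 11.53 and 11.56 with R1881 and 10.78, 10.73 and 10.96 with vehicle. The treatments did not overlap, and PDIA4 rose by 0.82 (adjusted p = 0.02). In LNCaP, PDIA4 with siControl stood at 11.81, 11.27 and 11.73 with R1881 and 12.65, 10.49 and 11.18 with vehicle. For PDIA4 the knockdown arrays of LNCaP gave 11.49, 10.43 and 11.46 with R1881, against 11.30, 9.98 and 11.11 with vehicle. All LNCaP pairs but the siControl pair of set 1 were higher with R1881, and PDIA4 gave 0.25 (adjusted p = 0.341) over 6 pairs and 0.54 (adjusted p = 0.00476) without set 1.

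PDIA3 is the isomerase that works with CALR and CANX. PDIA3 had 12.25, 11.91 and 12.05 with R1881 in VCaP, against 11.65, 11.69 and 11.75 with vehicle. Without overlap of the treatments, PDIA3 rose by 0.37 (adjusted p = 0.0369). PDIA3 had 12.13, 12.11 and 12.50 with R1881 against 12.42, 11.94 and 12.14 with vehicle in the siControl arrays of LNCaP. PDIA3 with knockdown had 12.03, 12.22 and 12.25 with R1881 and 11.81, 12.08 and 11.92 with vehicle there. PDIA3 did not pass in LNCaP over 6 pairs or without set 1 (0.16, adjusted p = 0.238, and 0.25, adjusted p = 0.0679). Its clusters are annotated to PDIA3 and the pseudogene PDIA3P1 together, and the 2 cannot be told apart. PDIA6 is a further isomerase. PDIA6 had 11.59, 11.80 and 11.90 with R1881 in VCaP, against 11.02, 11.50 and 11.66 with vehicle. Its VCaP treatments overlapped, and PDIA6 did not pass there, at 0.37 (adjusted p = 0.0618). PDIA6 had 11.44, 11.87 and 12.09 with R1881 against 11.80, 11.41 and 11.70 with vehicle in the siControl arrays of LNCaP. PDIA6 with knockdown had 11.19, 11.86 and 11.78 with R1881 and 11.04, 11.59 and 11.61 with vehicle there. PDIA6 differed by 0.18 over 6 LNCaP pairs (adjusted p = 0.234) and rose by 0.32 without set 1 (adjusted p = 0.0256). ERO1B, an oxidase that passes electrons from the isomerases to oxygen, also rose in VCaP. In VCaP the ERO1B signal was 8.64, 7.92 and 7.91 with R1881 and 7.23, 6.90 and 7.32 with vehicle. The treatments did not overlap, and the difference was 1.00 ± 0.25 (adjusted p = 0.00998). In LNCaP, ERO1B with siControl stood at 8.34, 7.59 and 8.13 with R1881 and 9.30, 7.73 and 7.46 with vehicle. For ERO1B the knockdown arrays of LNCaP gave 7.74, 8.09 and 8.32 with R1881, against 7.89, 8.11 and 7.87 with vehicle. In LNCaP the ERO1B pairs of set 3 were above 0 and those of sets 1 and 2 below, and the fit gave -0.02 (adjusted p = 0.952) over 6 pairs and 0.24 (adjusted p = 0.336) without set 1.

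Of the 6 genes of ER-associated degradation, EDEM1, SYVN1 and DERL1 rose in VCaP. EDEM1 is a lectin-like protein that marks misfolded glycoproteins. EDEM1 had 9.61, 9.43 and 9.40 with R1881 in VCaP, against 8.60, 8.67 and 8.49 with vehicle. Its treatments did not overlap, and it rose by 0.89 (adjusted p = 0.0167). EDEM1 had 9.64, 8.92 and 10.03 with R1881 against 10.30, 8.27 and 9.13 with vehicle in the siControl arrays of LNCaP. EDEM1 with knockdown had 9.27, 8.29 and 9.60 with R1881 and 9.46, 7.95 and 8.83 with vehicle there. EDEM1 was lower with R1881 in both set 1 pairs and higher in the other 4, and gave 0.30 (adjusted p = 0.264) over 6 pairs and 0.66 (adjusted p = 0.00167) without set 1. SYVN1 is the ubiquitin ligase HRD1 of the ER membrane. In VCaP the SYVN1 signal was 10.52, 9.84 and 10.41 with R1881 and 9.80, 9.25 and 9.68 with vehicle. Every R1881 array was above every vehicle array, and SYVN1 rose by 0.68 (adjusted p = 0.0214). In LNCaP, SYVN1 with siControl stood at 9.80, 9.20 and 9.99 with R1881 and 10.32, 8.48 and 9.25 with vehicle. For SYVN1 the knockdown arrays of LNCaP gave 9.37, 8.46 and 9.93 with R1881, against 9.17, 8.12 and 9.31 with vehicle. It gave 0.35 (adjusted p = 0.104) over 6 LNCaP pairs and 0.61 (adjusted p = 0.00128) without set 1.

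HERPUD1, a membrane protein that assembles the SYVN1 complex, did not pass in VCaP. HERPUD1 had 11.33, 10.88 and 10.95 with R1881 in VCaP, against 10.46, 10.40 and 10.31 with vehicle. The treatments did not overlap, and the difference was 0.66 ± 0.30 (adjusted p = 0.113). HERPUD1 had 12.47, 11.28 and 11.53 with R1881 against 13.09, 10.72 and 10.45 with vehicle in the siControl arrays of LNCaP. HERPUD1 with knockdown had 10.92, 11.52 and 11.50 with R1881 and 11.35, 11.26 and 10.34 with vehicle there. HERPUD1 was lower with R1881 in both set 1 pairs, and rose by 0.76 without that set (adjusted p = 0.00554), against 0.34 with it (adjusted p = 0.31). The derlins DERL1 and DERL2 help proteins out of the ER membrane. In VCaP the DERL1 signal was 11.51, 11.30 and 11.27 with R1881 and 11.02, 11.08 and 11.06 with vehicle. In LNCaP, DERL1 with siControl stood at 11.28, 10.46 and 12.01 with R1881 and 11.30, 10.27 and 11.62 with vehicle. For DERL1 the knockdown arrays of LNCaP gave 11.15, 9.36 and 11.80 with R1881, against 11.07, 9.39 and 11.49 with vehicle. DERL1 rose by 0.31 in VCaP (adjusted p = 0.0364), where its treatments did not overlap, and differed by 0.15 over 6 LNCaP pairs (adjusted p = 0.162). Without set 1 DERL1 differed by 0.21 in LNCaP (adjusted p = 0.135). In VCaP the DERL2 signal was 9.87, 9.43 and 9.64 with R1881 and 9.33, 9.12 and 9.33 with vehicle. In LNCaP, DERL2 with siControl stood at 10.23, 10.07 and 10.85 with R1881 and 10.68, 9.50 and 10.29 with vehicle. For DERL2 the knockdown arrays of LNCaP gave 10.11, 10.46 and 10.48 with R1881, against 9.85, 10.29 and 9.82 with vehicle. The VCaP treatments of DERL2 did not overlap, and it differed by 0.38 there (adjusted p = 0.12). In LNCaP DERL2 differed by 0.30 over 6 pairs (adjusted p = 0.12) and rose by 0.49 without set 1 (adjusted p = 0.00582). SEL1L, the partner that holds SYVN1 to its substrates, differed by 0.17 in VCaP (95% interval -0.25 to 0.58) and by 0.00 in LNCaP without set 1 (-0.18 to 0.18).

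The last group joins translocation, export and secreted proteins. SEC61B, the beta subunit of the translocation channel, had the smallest adjusted p of the 30 genes in VCaP and over the 6 LNCaP pairs. SEC61B had 11.92, 11.75 and 11.84 with R1881 in VCaP, against 10.83, 10.97 and 10.96 with vehicle. R1881 and vehicle arrays of VCaP were 0.79 to 1.09 apart, and SEC61B rose by 0.92 ± 0.14 (adjusted p = 0.000503). SEC61B had 11.76, 11.78 and 12.66 with R1881 against 11.82, 11.09 and 11.93 with vehicle in the siControl arrays of LNCaP. SEC61B with knockdown had 11.88, 11.57 and 12.30 with R1881 and 11.53, 11.21 and 11.74 with vehicle there. In the siControl pair of set 1 it differed by -0.06, and it rose by 0.44 ± 0.10 over 6 LNCaP pairs (adjusted p = 0.00769) and by 0.59 without set 1 (adjusted p = 0.00172), where DNAJB9 had the smallest adjusted p. SEC24D, a cargo adaptor of the COPII coat that carries proteins out of the ER, rose in both lines. In VCaP the SEC24D signal was 10.08, 9.32 and 9.82 with R1881 and 8.67, 8.31 and 8.29 with vehicle. The treatments did not overlap, and the difference was 1.32 (adjusted p = 0.0228). In LNCaP, SEC24D with siControl stood at 9.61, 9.90 and 10.56 with R1881 and 10.23, 8.41 and 8.64 with vehicle. For SEC24D the knockdown arrays of LNCaP gave 9.03, 8.72 and 9.92 with R1881, against 8.83, 8.11 and 8.30 with vehicle. Its differences reached 1.92 with siControl in set 3, against -0.62 with siControl in set 1, and the fit gave 0.87 (adjusted p = 0.0451) over 6 pairs and 1.41 (adjusted p = 0.000878) without set 1.

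MANF and CRELD2 are ER proteins that stressed cells can secrete, and WFS1 is a membrane protein of the ER. MANF had 10.89, 10.68 and 10.94 with R1881 in VCaP, against 10.05, 10.09 and 10.20 with vehicle. Its VCaP treatments did not overlap. MANF had 10.81, 10.41 and 11.19 with R1881 against 11.38, 9.58 and 10.31 with vehicle in the siControl arrays of LNCaP. MANF with knockdown had 10.47, 10.29 and 10.89 with R1881 and 10.28, 9.90 and 10.10 with vehicle there. MANF rose by 0.73 in VCaP (adjusted p = 0.0298), and in LNCaP it gave 0.42 over 6 pairs (adjusted p = 0.0936) and 0.72 without set 1 (adjusted p = 0.000982). In VCaP the CRELD2 signal was 7.97, 7.73 and 7.61 with R1881 and 7.34, 7.26 and 6.97 with vehicle. In LNCaP, CRELD2 with siControl stood at 7.94, 8.13 and 8.54 with R1881 and 8.77, 7.43 and 7.94 with vehicle. For CRELD2 the knockdown arrays of LNCaP gave 7.85, 7.76 and 8.41 with R1881, against 7.36, 7.45 and 7.96 with vehicle. CRELD2 did not pass in VCaP at 0.58 (adjusted p = 0.0738), although the treatments did not overlap, and rose by 0.51 in LNCaP without set 1 (adjusted p = 0.00271). WFS1 had 8.47, 8.37 and 8.46 with R1881 in VCaP, against 7.96, 7.83 and 7.84 with vehicle. WFS1 did not overlap between treatments in VCaP. WFS1 had 8.52, 8.47 and 9.20 with R1881 against 9.24, 7.99 and 8.42 with vehicle in the siControl arrays of LNCaP. WFS1 with knockdown had 8.18, 7.82 and 8.91 with R1881 and 8.08, 7.78 and 8.41 with vehicle there. WFS1 differed by 0.55 in VCaP (adjusted p = 0.069) and rose by 0.45 in LNCaP without set 1 (adjusted p = 0.0177).

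The 12 genes with a promoter element and the 15 with none were set side by side as a description. Those with an element had a median difference of 0.53 in VCaP, from 0.19 to 1.07, with 4 called. Those with none had a median of 0.68, from 0.15 to 1.52, with 11 called. The called counts depended on the fit. On the VCaP arrays alone CRELD2, HERPUD1, HSPA5, PDIA6 and XBP1, which have an element, were called as well. So were DERL2 and WFS1, which have none. DNAJB9 and DNAJC3, which rose most of the 27, had none of the elements in the window searched, and this says only that these letters are not in it.

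A test of the 6 siControl arrays of LNCaP alone, without pairing, called 0 of the 30 genes, where 0.253% of all genes were called. At an unadjusted p under 0.05 there were also 0, where 2.33% of all genes were. The unpaired test pools sets, although levels are comparable within a set only. The androgen target KLK3 did not pass it either, at 1.565 (adjusted p = 0.989). A count of 0 in it thus does not show that the ER genes were unchanged. With the set as a block the test also called 0 of the 30 (5.31% of all genes). The median was 0.18 and 25 of the 30 were above 0. Without the set 1 arrays the unpaired test also called 0, with a median of 0.64 and 29 of the 30 above 0. It had 2 at an unadjusted p under 0.05, a threshold not counted over all genes there.

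The R1881 difference was larger in VCaP than in LNCaP for 1 of the 30 genes, where 11.6% of all genes were called and 5.25% as larger in VCaP. That gene was ERO1B, at 1.03 ± 0.30 (VCaP minus LNCaP, adjusted p = 0.049). Without set 1 ERO1B did not pass, at 0.76 (adjusted p = 0.0868), and 0 of the 30 genes did (7.35% of all genes called). The median over the 30 genes was 0.33, and 0.10 without set 1. SEC61B had the next lowest adjusted p, 0.0856, at 0.48, and 0.33 without set 1 (adjusted p = 0.168). VCaP had 1 nM R1881 and the LNCaP sets 1 or 10 nM, so line and dose cannot be told apart outside set 2.

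With siCTBP1-AS in LNCaP, the ER genes called as lower depended on the arrays used. Over 4 differences from siControl, 8 of the 30 genes fell and 0 rose, where 6.6% of all genes were called and 3.73% as lower. The 8 were the sensor EIF2AK3, the cochaperone SDF2L1, the isomerase PDIA4, the degradation genes SYVN1, EDEM1 and DERL1, the export adaptor SEC24D and WFS1. The median of the 30 was -0.45, against -0.01 for all genes. By array set the medians were -0.33 with R1881 and -1.1 with vehicle in set 1, and -0.28 with R1881 and 0.06 with vehicle in set 2. In the vehicle difference of set 2, 17 of the 30 genes were above 0 and 13 below. The set 1 vehicle difference rests on the siControl array that stood apart, and all 30 genes were below 0 in it, SEL1L furthest at -2.31.

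Without that difference 6 of the 8 still fell, EIF2AK3, EDEM1, SYVN1, PDIA4, SEC24D and DERL1 (6.39% of all genes called, 3.78% as lower). With set 1 left out, 7 of the 8 fell, all but SDF2L1, at -0.43 (adjusted p = 0.103), and DERL2 and DNAJB11 rose, where 21.3% of all genes were called, 12.1% as lower and 9.17% as higher, and the median was -0.08. Only the vehicle and R1881 differences of set 2 remain there, with the siRNA marked #2 at 1 nM, and that fit has 4 residual degrees of freedom. On sets 1 and 2 alone 0 of the 30 passed (0.282% of all genes). That fit has 3 residual degrees of freedom. Leaving out set 1 turned the sign of 10 of the 30 fitted differences, of which DNAJB11 was called, at 0.44 (adjusted p = 0.0185) against -0.06 with set 1 (adjusted p = 0.902). HERPUD1 was at 0.39 without set 1 (adjusted p = 0.0564) and at -0.63 with it (adjusted p = 0.275).

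EIF2AK3 had the smallest adjusted p. Its signals, given with the R1881 response, were lower with siCTBP1-AS than with siControl in all 4 LNCaP comparisons, by 0.33 to 0.9, and it fell by 0.64 ± 0.10 (adjusted p = 0.00804). SYVN1 fell by 0.67 ± 0.12 (adjusted p = 0.0123), with differences of -0.43 with R1881 and -1.16 with vehicle in set 1 and of -0.73 and -0.36 in set 2. EDEM1 fell by 0.54 ± 0.10 (adjusted p = 0.0131), also in all 4. SEC24D fell by 0.87 ± 0.17 (adjusted p = 0.0166), and its 2 set 2 differences were -1.19 with R1881 and -0.3 with vehicle. PDIA4 fell by 0.75 ± 0.15 (adjusted p = 0.0175), WFS1 by 0.59 (adjusted p = 0.0338) and SDF2L1 by 0.66 (adjusted p = 0.0482). These genes were lower with siCTBP1-AS in each of the 4 comparisons.

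DERL1 and DERL2 parted in set 2. DERL1 fell by 0.58 ± 0.15 over both sets (adjusted p = 0.0439) and by 0.98 without set 1 (adjusted p = 0.000754), and most of this lay in set 2, at -1.09 with R1881 and -0.87 with vehicle, against -0.13 and -0.23 in set 1. DERL2 was higher with siCTBP1-AS in set 2, at 0.4 with R1881 and 0.79 with vehicle, and lower in set 1, at -0.12 and -0.83. Its fitted value was 0.06 over both sets (adjusted p = 0.895) and 0.59 without set 1 (adjusted p = 0.00969). In VCaP, which has the same mark on its siRNA and the same dose as set 2, DERL1 differed by 0.03 with R1881 and 0.02 with vehicle, and DERL2 by -0.21 and -0.21. Without set 1, the siCTBP1-AS difference was higher in VCaP than in LNCaP for DERL1, by 1.01 ± 0.16 (adjusted p = 0.00816), and lower for DERL2, at -0.80 ± 0.17 (adjusted p = 0.0236), and for DNAJB11, at -0.56 ± 0.15 (adjusted p = 0.0457). Of all genes, 10.8% were called in that comparison, 5.44% as higher and 5.31% as lower. With set 1 included, 0 of the 30 differed between the lines, where 0.376% of all genes were called. At an unadjusted p under 0.05 there were 5 of the 30, where 13% of all genes were.

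**Figure D4:**
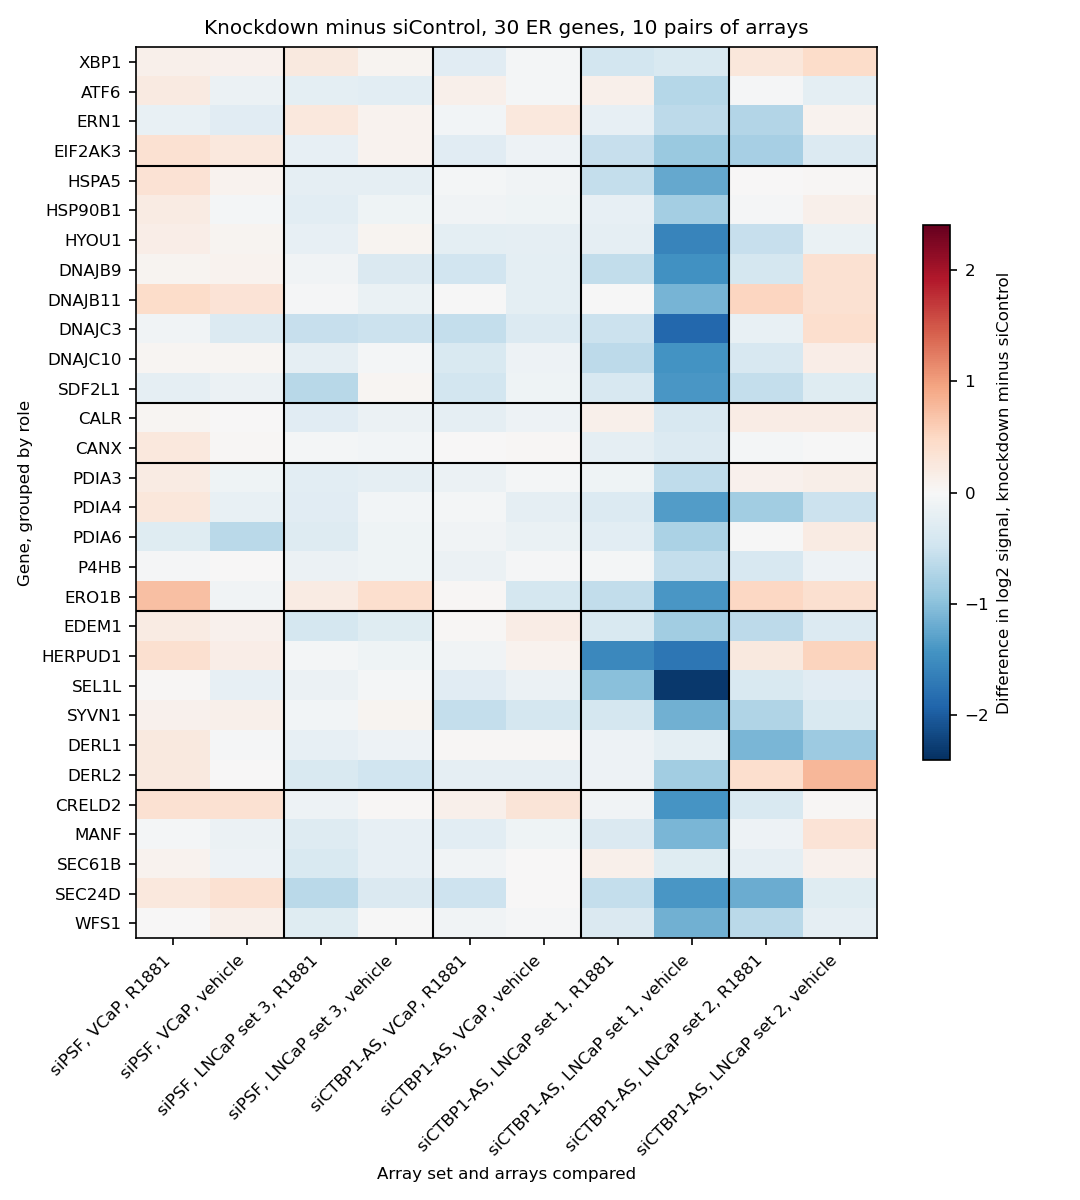
Difference in log2 signal, knockdown minus siControl, for 30 ER genes (rows, grouped by role) in 10 comparisons of arrays (columns, by siRNA, set and treatment). The vehicle column of siCTBP1-AS in LNCaP set 1 is blue (lower with the knockdown) for all 30 genes, with SEL1L at -2.31, and the siPSF columns stay within -0.66 and 0.73.

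In VCaP, 0 of the 30 genes passed the limma test for siCTBP1-AS, where 0.391% of all genes were called. At an unadjusted p under 0.05 there was 1 of the 30, where 11.3% of all genes were. The median was -0.13. SYVN1 was lower in both VCaP comparisons, at -0.57 with R1881 and -0.43 with vehicle, and its fitted value was -0.50 (adjusted p = 0.301). Over the mean of both lines, SYVN1 fell by 0.59 ± 0.10 (adjusted p = 0.0198) and EIF2AK3 by 0.42 ± 0.09 (adjusted p = 0.0417), where 2.56% of all genes were called and 1.38% as lower. Both also fell with set 1 left out, by 0.52 and 0.38, with DERL1 and PDIA4 beside them (13.4% of all genes called, 8.61% as lower).

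Interferon response genes moved with siCTBP1-AS as well. In LNCaP 16 of 18 tested rose, with a median of 3.53 (16 of 18 and 2.48 without set 1), and in VCaP 2 of 18 rose, with a median of 1.36. With siPSF in VCaP 14 of 18 rose, with a median of 2.63. Of all genes, 6.6% were called with siCTBP1-AS in LNCaP (9.17% as higher without set 1), 0.391% in VCaP and 2.4% with siPSF in VCaP. The part of the interferon genes in the ER gene results was not tested. In the siControl pair of set 1 the interferon genes had a median R1881 difference of -1.57.

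For siPSF, 0 of the 30 genes passed the limma test in VCaP (median 0.07, 2.4% of all genes called) and 0 in LNCaP (median -0.17, 1.11%). The difference between the lines passed for 0 genes (0.804%), as did their mean (2.87%). At an unadjusted p under 0.05 there was 1 of the 30 in VCaP (14.9% of all genes) and 1 in LNCaP (14.7%). There were 2 for the difference (12.2%) and 1 for the mean (16.8%). Across the 4 siPSF comparisons single genes ranged from -0.66 for SDF2L1 with R1881 in LNCaP to 0.73 for ERO1B with R1881 in VCaP. siPSF and siCTBP1-AS share the siControl arrays of VCaP. Set against each other, 0 of the 30 genes passed (median 0.18, 1.45% of all genes called), with 3 at an unadjusted p under 0.05 (13.4%).

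Whether a knockdown changed the R1881 response was tested as a product term in limma. The product term of siCTBP1-AS had a median of -0.03 and that of siPSF a median of 0.27. For either, 0 of the 30 and 0% of all genes were called. At an unadjusted p under 0.05 there were 0 ER genes for either, where 7.93% of all genes were for siCTBP1-AS and 4.99% for siPSF. For siPSF the term was above 0 for 29 of the 30 genes. Without set 1, 0 of the 30 and 0% of all genes were called for either. The siPSF term then had a median of 0.03 with 20 genes above 0, and the siCTBP1-AS term a median of -0.24 with 3 above 0 and 6 at an unadjusted p under 0.05. The share of all genes at that unadjusted threshold was not counted without set 1.

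The same R1881 arrays were read for other genes of the secretory route. In COPII export and retrieval, 11 of 24 tested genes rose in VCaP and 11 in LNCaP over 6 pairs, with 0 lower in either and medians of 0.40 and 0.30. Without set 1, 16 rose in LNCaP. As shares of all genes tested, 14% were higher and 15.6% lower in VCaP, 9.35% and 8.93% in LNCaP over 6 pairs, and 8.82% and 8.2% without set 1. KDELR3, a receptor that returns escaped ER proteins, rose by 1.73 in VCaP (adjusted p = 2.24e-05) and 0.37 in LNCaP (adjusted p = 0.037). In translocation and signal peptide removal, 12 of 30 rose in VCaP and 8 in LNCaP, with 0 lower, and 18 rose in LNCaP without set 1. SEC11C, a subunit of signal peptidase, rose by 1.28 in VCaP (adjusted p = 0.000177) and 0.50 in LNCaP (adjusted p = 0.00893).

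Of 29 other ER folding genes, 11 rose and 1 fell in VCaP, and 7 rose and 0 fell in LNCaP, with 12 and 0 without set 1. CLGN, a relative of calnexin, rose by 1.19 in VCaP (adjusted p = 0.00166) and PDIA5 by 1.03 in LNCaP (adjusted p = 0.000433). Of 30 other degradation genes, 13 rose and 3 fell in VCaP, and 8 rose and 1 fell in LNCaP, with 14 and 1 without set 1. EDEM3, a relative of EDEM1, rose by 1.19 in LNCaP (adjusted p = 0.000512), and UBE2J1, a ubiquitin-conjugating enzyme of the ER membrane, by 1.05 (adjusted p = 0.00578). Of 15 regulators of the ATF6 and XBP1 branches, 6 rose and 1 fell in VCaP, and 4 rose and 0 fell in LNCaP, both over 6 pairs and without set 1. CREB3L4, an ER-bound transcription factor, rose by 1.47 in VCaP (adjusted p = 3.84e-05) and 1.20 in LNCaP (adjusted p = 1.62e-05). KDELR3, SEC11C, PDIA5, EDEM3, UBE2J1 and CREB3L4 were also called as higher in LNCaP without set 1.

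Among 19 cytosolic heat shock genes, 2 rose and 2 fell in VCaP and 4 rose and 3 fell in LNCaP, with medians of 0.00 and -0.02. Without set 1, 3 rose and 3 fell in LNCaP. Of all genes, 14% were higher and 15.6% lower in VCaP, 9.35% and 8.93% in LNCaP over 6 pairs, and 8.82% and 8.2% without set 1. Among 19 genes of the PERK, ATF4 and CHOP branch, 1 rose and 1 fell in VCaP, and 2 rose and 4 fell in LNCaP, with 3 and 2 without set 1. VLDLR, a lipoprotein receptor, rose by 1.07 in LNCaP (adjusted p = 0.0108) and by 1.28 without set 1 (adjusted p = 0.0177). It was named for the size of its difference, and the branch had a median of -0.05 in LNCaP without set 1. No test compared these lists with the 30 ER genes.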

How the data were processed

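The authors deposited 1 log2 signal for each transcript cluster and array. RMA in Expression Console 1.1.1 produced it, per the submitters' processing notes, which do not say which arrays were processed together. Sets were read from the array names in the labels. Of 33297 clusters, 19460 had 1 symbol in the platform annotation, 1754 several and 12083 none listed. A gene with several clusters (770 genes) took the one with the highest mean. PDIA3 came only from clusters shared with PDIA3P1.

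Tests used limma 3.58.1 in R 4.3.3 (lmFit, eBayes, Benjamini-Hochberg over 13813 genes, threshold 0.05) after the 25% of genes with the lowest mean signal were left out, and all 30 genes passed that filter in each fit. R1881 minus vehicle was fitted per line on all 18 arrays with each pair of 1 set and siRNA as a block, and knockdown minus siControl with each set and treatment as a block. The spread is shared over lines and sets. The LNCaP siControl arrays were also fitted without a block. Each replicate number there marks 1 set, so the numbers pair the arrays. Correlations of deviations were 0.79, 0.84 and 0.71 between arrays of the same number and -0.63 to -0.13 between the others. The deviations are from the mean of each treatment's arrays, and the sets differ in level. These correlations therefore describe differences between sets and do not test the pairing. The labels do not state separate cultures, so the p-values reflect only how these arrays vary, and that variation may be technical. The fits were tested on simulated data.

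The 30 genes and all gene lists were chosen with earlier results of these data known. All 30 are accounted for, with values on every array for those called in any comparison, with or without LNCaP set 1, and for HSPA5, HSP90B1, XBP1, ATF6, ERN1, EIF2AK3, HERPUD1, SDF2L1, CRELD2 and MANF. Of the other ER and stress lists at most the 5 called genes with the largest difference could be named per comparison. Promoter sequences are RefSeq's on GRCh38.p14. Alternatives changed the low-signal filter, the normalization, the moderation, the cluster rule, the block and the arrays. The alternative that leaves out LNCaP set 1 was added after the values were seen. Precision is limited by the number of arrays.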

Additional observations from a re-analysis of the deposited data

Results flagged for a closer look

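ERO1B had a larger R1881 difference in VCaP than in LNCaP, by 1.03 ± 0.30 on the log2 scale (limma adjusted p = 0.049), and was named because the difference between the lines was itself tested. Its adjusted p lay between 0.0225 and 0.202 over the alternatives. The same test passed for 4 other genes of the secretory route, KDELR3 at 1.36 (adjusted p = 0.00141), SEC11C at 0.78 (adjusted p = 0.0242), SEC16A at 0.45 (adjusted p = 0.0342) and TMED10 at 0.41 (adjusted p = 0.049). Of all genes, 5.25% were called as larger in VCaP there. Without LNCaP set 1 KDELR3 (1.14, adjusted p = 0.000936) and SEC11C (0.64, adjusted p = 0.0348) passed, and SEC16A (0.33, adjusted p = 0.0845), TMED10 (0.34, adjusted p = 0.128) and ERO1B (0.76, adjusted p = 0.0868) did not. EDEM3 then passed in the other direction, larger in LNCaP, at -1.265 (adjusted p = 0.00365). Of all genes, 3.47% were called as higher and 3.87% as lower in that fit.

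The siCTBP1-AS difference was higher in VCaP than in LNCaP for 5 of 19 genes of the PERK, ATF4 and CHOP branch, where 0.376% of all genes were called. Without LNCaP set 1 the count was 11 of 19, these 5 included, where 5.44% of all genes were called as higher. CHAC1 differed by 2.91 (adjusted p = 0.0295), SESN2 by 2.05 (adjusted p = 0.0295), STC2 by 1.93 (adjusted p = 0.0394), VEGFA by 1.5 (adjusted p = 0.0394) and CEBPB by 1.36 (adjusted p = 0.0282). EIF2AK3, the sensor of that branch, did not pass in the same test.

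No group of arrays held more than 3, so no search for single outlying arrays within a group was made.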

How the results depend on the processing

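Leaving out LNCaP set 1 turned the sign of 10 of the 30 ER genes for siCTBP1-AS in LNCaP, 1 of them called (DNAJB11, 0.44 without set 1 and -0.06 with it), and of 3 to 10, none called, in the other 4 comparisons refitted gene by gene without it. Counts of ER genes called follow. R1881 in LNCaP over 6 pairs (4) gave 2 with no low-signal filter, 2 after quantile normalization within each line, 2 with trend and robust moderation, 2 with the set as the only block, 1 on the LNCaP sets alone, 1 to 22 when a pair was left out and 23 without set 1. The 22 came without the siControl pair of set 1, and the 1 or 2 without either pair of set 2 or of set 3. R1881 in VCaP (18) gave 3 to 6 when a pair was left out and 12 with the set as the only block. The difference between lines (1) gave 0 with no filter, with trend and robust moderation, with the set as the only block and without set 1, and 0 to 1 when a pair was left out. siCTBP1-AS in LNCaP (8) gave 0 with the set as the only block, 0 on sets 1 and 2 alone and 3 to 8 when an array was left out, the 3 without the siCTBP1-AS array with R1881 of set 2. Its VCaP minus LNCaP contrast (0) gave 3 without set 1. Its mean over both lines (2) gave 1 with no filter, 1 after quantile normalization, 0 with the set as the only block, 1 on its own sets alone, 0 to 3 when an array was left out and 4 without set 1. On their own sets alone siPSF gave 1 in LNCaP and 2 for the mean (0 each), and siPSF against siCTBP1-AS gave 1 (0). The causes were not tested. The replicate block on the LNCaP siControl arrays left 0 ER genes called, while the count over all genes was 734 with it and 35 without. For siCTBP1-AS in LNCaP, 911 genes in all were called, against 39 on sets 1 and 2 alone and 2940 without set 1.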

Other observations

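With siCTBP1-AS in VCaP, 0 of the 30 ER genes passed, where 0.391% of all genes were called. In the PERK, ATF4 and CHOP branch 4 of 19 genes rose. They were CHAC1, a glutathione-degrading enzyme, at 2.28 (limma adjusted p = 0.0361), the transcription factors CEBPB at 1.12 (adjusted p = 0.0214) and ATF3 at 0.92 (adjusted p = 0.0361), and PPP1R15A, a phosphatase subunit that restarts translation, at 0.98 (adjusted p = 0.0361). In LNCaP 7 of 19 genes of this branch fell with siCTBP1-AS, PSAT1 most at -0.97 (adjusted p = 0.0236), where 3.73% of all genes were called as lower. Without set 1, whose siControl array with vehicle was high for this branch, 2 fell (12.1% of all genes), and without the vehicle difference of set 1, 3 fell (3.78%). PSAT1 passed in neither, and was at -0.61 without set 1 (adjusted p = 0.0918). KDELR3 rose with siPSF in LNCaP, by 1.40 (adjusted p = 0.033).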
